A study of Mus musculus with 3 samples.

Results

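The genes described here are 40 genes of DNA replication and mitosis, 20 of each, out of 54331 features in the deposited table. They were chosen by name as a list of mouse symbols, with earlier results of these data known. Of them, 20 are genes of S phase (the cyclin E and E2F1 genes, origin licensing, the replicative helicase, nucleotide supply and chromatin assembly). The other 20 are genes of G2 and mitosis (cyclins A and B, mitotic kinases, the spindle checkpoint, kinesins and kinetochore proteins). All 40 were found in the table, and all 40 passed the filter of a mean value of at least 10 that left 13877 features for testing. The RNA came from RAW 264.7, a transformed mouse macrophage line of BALB/c male origin, given lipopolysaccharide (LPS, the bacterial ligand of the receptor TLR4) at 100 ng/mL for 5 h. There were 3 libraries of polyadenylated RNA. In 2 of them the cells are labelled GIV-depleted and carried either of 2 different short hairpin RNAs (shRNA 2 and shRNA 1) against GIV, also called Girdin, a scaffold protein encoded by Ccdc88a. The remaining library, from cells with a control shRNA and labelled wild-type, is the single control. Every library received LPS, so a response to LPS itself is not part of any comparison. The sources used here do not say whether each line was a clone or a pool.

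Cells entering S phase switch on genes bound by E2F factors, among them the subunits of the MCM helicase, which is loaded at origins in G1 and unwinds DNA in S phase. Genes of G2 and mitosis are switched on later, through the MuvB core with B-MYB and FOXM1, at a promoter element called the CHR (cell cycle genes homology region), often with CCAAT boxes bound by NF-Y nearby. In resting cells the DREAM complex holds both sets down. Macrophage lines such as RAW 264.7 divide in culture, and LPS is known to slow the division of macrophages.

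The promoters are shown first because the gene sets differ in these elements. RefSeq promoter windows on GRCm38.p6, from 250 bases before to 50 bases after the transcript start, were matched by symbol for 32 of the 40 members, 16 of each set. Matches were sought on both strands. The E2F element was searched as TTTCCCGC, TTTCGCGC, TTTGCCGC or TTTGGCGC, the CHR as TTTGAA or TTTAAA, and the CCAAT box as CCAAT. An E2F match lay in 1 of 16 mitosis windows and 6 of 16 replication windows, against 2.26% of all 32851 windows of the same length. A CHR match lay in 14 of 16 mitosis windows and 5 of 16 replication windows, against 27.6% of all windows. CCAAT was present in 14 of 16 mitosis windows and 9 of 16 replication windows, against 37.4% of all. These are matches of letters and not measured binding, and a window without a match says only that these letters are not in it. Each sequence below gives the 250 bases before the transcript start, 5′ to 3′ on the gene's strand, with matches in capitals; the counts above also take in the 50 bases after the start, which are not printed. The start is that of the RefSeq table. For Birc5, Kif11 and Mcm5 it lies upstream of the gene start in GENCODE M21. For Mcm7, Rrm2 and Cdc20 it lies inside the gene as annotated there, and the whole printed stretch of Mcm7 lies within that gene. These 3 mitosis genes and 3 replication genes had the largest differences between the libraries labelled shRNA 2 and shRNA 1 among the members with a window:
Cenpf (chr1:189688087-189688336, minus strand): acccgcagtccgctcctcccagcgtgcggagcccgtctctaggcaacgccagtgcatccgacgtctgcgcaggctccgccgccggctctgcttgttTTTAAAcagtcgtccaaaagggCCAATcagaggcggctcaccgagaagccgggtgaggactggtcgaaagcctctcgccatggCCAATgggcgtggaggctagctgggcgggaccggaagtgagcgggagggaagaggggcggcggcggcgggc
Birc5 (chr11:117848987-117849236, plus strand): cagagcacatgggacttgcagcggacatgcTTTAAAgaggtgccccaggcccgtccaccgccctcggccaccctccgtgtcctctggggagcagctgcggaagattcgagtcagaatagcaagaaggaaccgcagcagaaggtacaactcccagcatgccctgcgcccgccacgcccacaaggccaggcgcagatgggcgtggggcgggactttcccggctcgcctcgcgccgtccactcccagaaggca
Nusap1 (chr2:119618048-119618297, plus strand): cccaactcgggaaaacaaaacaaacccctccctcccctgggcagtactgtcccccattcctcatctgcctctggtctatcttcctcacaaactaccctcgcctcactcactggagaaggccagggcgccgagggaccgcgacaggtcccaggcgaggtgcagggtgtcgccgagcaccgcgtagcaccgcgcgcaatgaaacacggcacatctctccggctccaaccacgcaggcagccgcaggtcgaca
Chaf1b (chr16:93883651-93883900, plus strand): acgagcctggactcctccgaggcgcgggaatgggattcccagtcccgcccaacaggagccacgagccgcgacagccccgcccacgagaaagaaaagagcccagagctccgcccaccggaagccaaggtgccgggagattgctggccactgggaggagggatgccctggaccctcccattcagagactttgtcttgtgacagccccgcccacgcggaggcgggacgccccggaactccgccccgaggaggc
Rrm2 (chr12:24708004-24708253, plus strand): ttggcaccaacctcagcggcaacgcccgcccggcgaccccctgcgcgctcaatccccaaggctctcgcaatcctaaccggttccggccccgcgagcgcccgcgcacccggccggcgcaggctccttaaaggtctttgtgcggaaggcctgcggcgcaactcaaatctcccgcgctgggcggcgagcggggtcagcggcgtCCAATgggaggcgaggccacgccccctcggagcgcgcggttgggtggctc
Mcm2 (chr6:88898781-88899030, minus strand): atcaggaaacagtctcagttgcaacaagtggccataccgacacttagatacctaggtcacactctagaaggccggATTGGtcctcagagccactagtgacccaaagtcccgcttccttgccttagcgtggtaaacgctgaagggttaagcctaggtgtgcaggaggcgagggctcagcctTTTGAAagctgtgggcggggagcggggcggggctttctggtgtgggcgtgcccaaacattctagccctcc
The next 4 members were added after their matches were seen, because they hold the elements typical of their set, a CHR and a CCAAT box for Cdc20 and Kif11 and an E2F element for Mcm7 and Mcm5:
Cdc20 (chr4:118437344-118437593, minus strand): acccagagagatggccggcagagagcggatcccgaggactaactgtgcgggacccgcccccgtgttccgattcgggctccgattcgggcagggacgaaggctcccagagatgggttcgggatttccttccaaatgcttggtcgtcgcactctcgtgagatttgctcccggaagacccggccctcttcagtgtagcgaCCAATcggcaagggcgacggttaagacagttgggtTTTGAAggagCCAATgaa
Kif11 (chr19:37376132-37376381, plus strand): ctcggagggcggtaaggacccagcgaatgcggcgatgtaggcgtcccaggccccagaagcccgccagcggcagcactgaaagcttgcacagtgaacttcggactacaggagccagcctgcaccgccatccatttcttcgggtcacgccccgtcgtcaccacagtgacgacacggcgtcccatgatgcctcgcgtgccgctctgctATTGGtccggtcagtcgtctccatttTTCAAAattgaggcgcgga
Mcm7 (chr5:138171884-138172133, minus strand): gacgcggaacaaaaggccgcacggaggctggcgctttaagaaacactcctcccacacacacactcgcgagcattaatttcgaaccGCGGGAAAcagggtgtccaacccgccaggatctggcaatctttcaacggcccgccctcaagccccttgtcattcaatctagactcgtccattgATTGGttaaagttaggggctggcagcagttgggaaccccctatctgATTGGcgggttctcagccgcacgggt
Mcm5 (chr8:75109259-75109508, plus strand): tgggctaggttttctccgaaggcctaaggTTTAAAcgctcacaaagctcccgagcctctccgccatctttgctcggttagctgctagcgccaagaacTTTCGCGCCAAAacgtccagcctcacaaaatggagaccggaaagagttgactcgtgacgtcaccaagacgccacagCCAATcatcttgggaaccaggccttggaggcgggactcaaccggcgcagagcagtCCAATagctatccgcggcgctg
In Cdc20 the CHR letters lie between 2 CCAAT boxes close to the transcript start, whereas Mcm5 holds 2 overlapping E2F matches further upstream. Nusap1 and Chaf1b hold none of the searched letters in these windows.

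**Figure D1:**
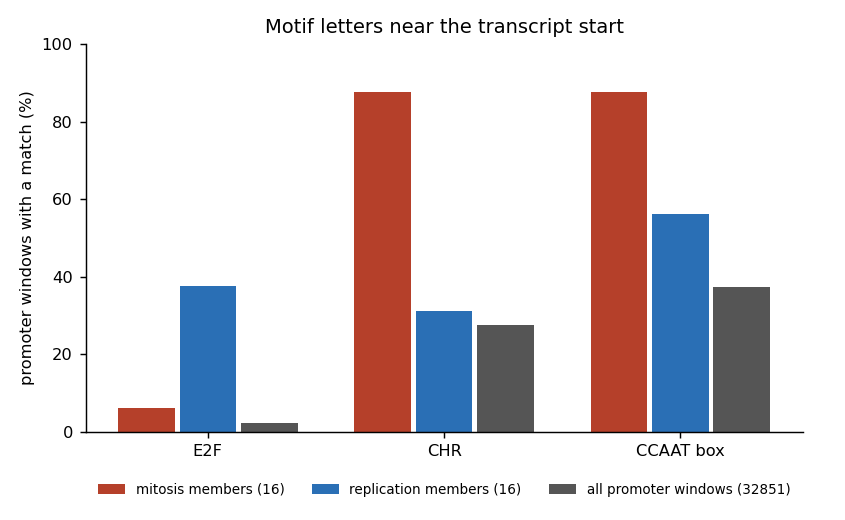
Share of promoter windows (vertical axis, percent) that hold letters of the E2F element, the CHR or the CCAAT box, for 16 mitosis members, 16 replication members and all 32851 windows. CHR letters are in 14 of 16 mitosis windows and 5 of 16 replication windows, and E2F letters in 1 of 16 and 6 of 16.

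Ccdc88a, the targeted gene, had 2561 normalized counts in the library labelled shRNA 2, 1734 in that labelled shRNA 1 and 2580.4 in the control. Its log2 difference from the control was -0.01 under shRNA 2 and -0.57 under shRNA 1 as labelled, and -0.29 over both (SE 0.28, adjusted p = 0.85 in limma). The mRNA thus goes against the label of the library labelled shRNA 2. Column totals ran from 47349097 to 49756670 normalized counts, and the commonest lowest value was between 0.931 and 1.11, so that a value of 1 stands for about 1 read. Mitochondrial transcripts made up 1.14% of the total in the library labelled shRNA 2, 0.995% in that labelled shRNA 1 and 1.43% in the control. All 10 macrophage markers passed the filter, with summed levels of 380769 normalized counts in the library labelled shRNA 2, 360515 in that labelled shRNA 1 and 466996 in the control. Of markers of other cell types, 0 of 6 fibroblast, 0 of 5 epithelial, 1 of 7 lymphocyte and 1 of 6 neutrophil and mast cell genes passed the filter on low values. Summed lymphocyte markers were at 38.3 in the library labelled shRNA 2, 12.4 in that labelled shRNA 1 and 11.2 in the control, and summed fibroblast markers at 3.85, 3.34 and 5.61 in the same libraries. For neutrophil and mast cell markers the sums were 77.4, 45.6 and 68.8. Markers listed at 0 in every library included Col3a1, Cd3e, Epcam, Krt18, Krt19, Cdh1, Ly6g, Elane, Cpa3 and Flt3. With 3 of 5 dendritic cell markers tested, the summed level of that list was 1120 in the library labelled shRNA 2, 1281 in that labelled shRNA 1 and 1129 in the control. The part of these markers and of the mitochondrial share in the results below was not tested.

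As a group, the 40 genes were higher in the library labelled shRNA 2 than in the library labelled shRNA 1. This held for 39 of the 40 members, where 49.5% of all tested features were higher. The median log2 difference, on the log2(value + 1) scale used throughout, was 0.42 over the 40 genes, or 1.34-fold, against -0.00 over all tested features. By a rule of at least 1.5-fold, 11 of 40 were higher and 0 lower, against 8.96% and 6.54% of all tested features. There is 1 library for each shRNA, and the members were chosen with earlier results known, so these are descriptions with no test. In bulk libraries a larger share of dividing cells and more of these RNAs per dividing cell cannot be told apart.

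**Figure D2:**
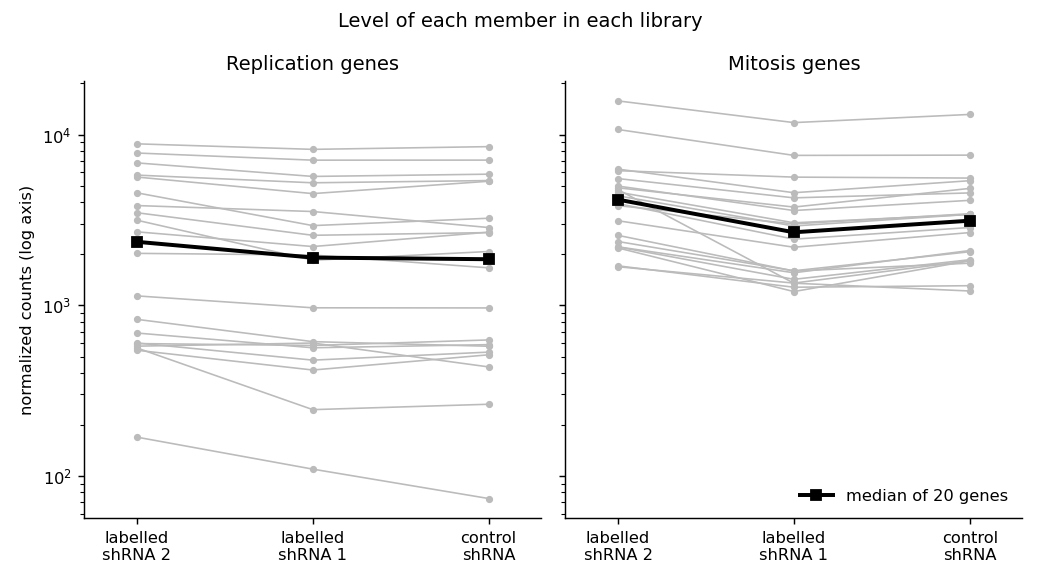
Level of each member in each library, in normalized counts on a log axis, with thin lines joining the values of 1 gene and the black line joining the medians of the 20 genes of a set. The mitosis median is 4155 in the library labelled shRNA 2, 2675 in that labelled shRNA 1 and 3127 in the control, and the replication median is 2352, 1902 and 1860 in the same 3 libraries.

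Relative to the control the libraries lay on opposite sides. In the library labelled shRNA 2, 38 of 40 members were above the control, where 49.6% of all tested features were, with a median log2 difference of 0.25. In the library labelled shRNA 1, 32 of 40 were below the control, where 49.8% of all tested features were, with a median of -0.15. The sets differed there, with 18 of 20 mitosis genes below the control and a median of -0.21. For replication genes it was 14 of 20, with a median of -0.05, close to the control. The same order of libraries, highest in the library labelled shRNA 2, intermediate in the control and lowest in the library labelled shRNA 1, was found for 30 of 40 members and for 14.6% of all tested features. Both comparisons use the same control library, so their values are given side by side and are not independent. At 1.5-fold, 4 members were higher than the control in the library labelled shRNA 2, namely Cenpf, Ung, Chaf1b and Rrm2, where 9.99% of all tested features were, and 0 were lower, against 7.19%. In the library labelled shRNA 1 only Birc5 passed that fold, as lower, where 7.85% of all tested features were lower by as much, and 0 were higher, against 8.83%. At this fold the count of members higher in the library labelled shRNA 2 was near the background share, and the other 3 counts were below it. What most members share is the direction of small differences.

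**Figure D3:**
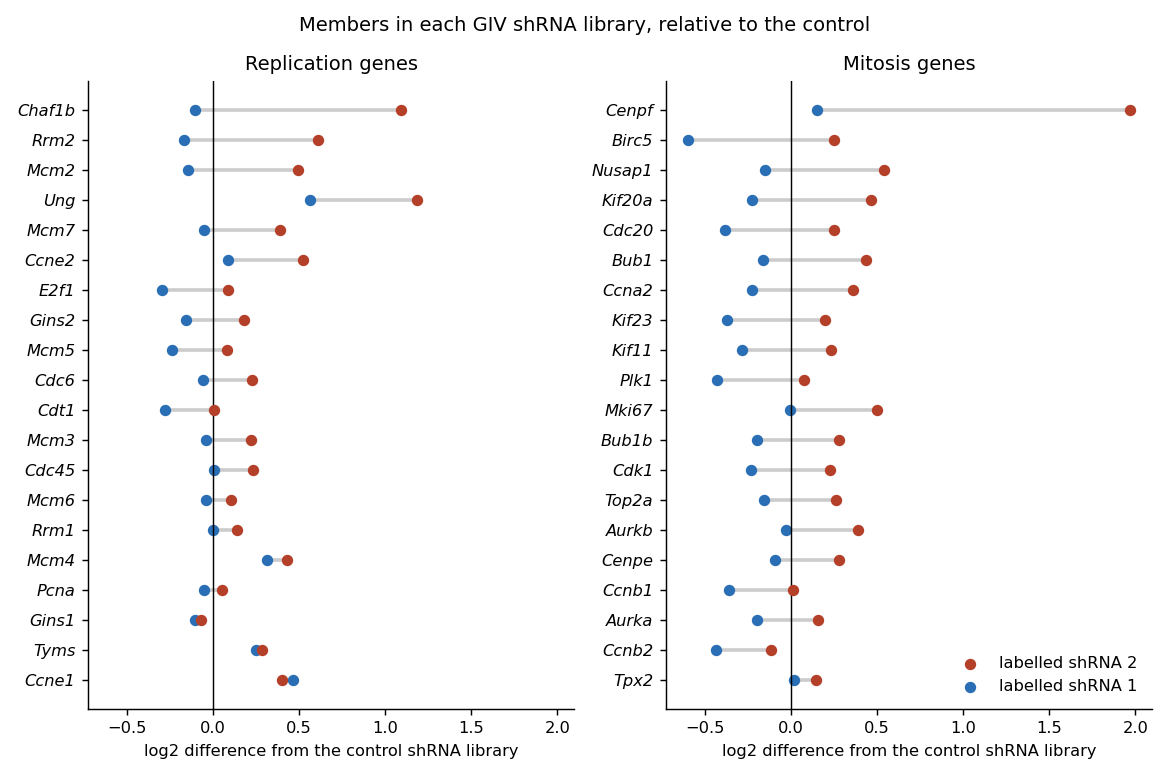
Log2 difference of each member from the control shRNA library (horizontal axis) in the libraries labelled shRNA 2 (red) and shRNA 1 (blue), sorted by the distance between them. The red point lies to the right of the blue point for 39 of 40 genes, the exception being Ccne1.

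Mitosis genes differed more between the libraries than replication genes. The median difference of the library labelled shRNA 2 from that labelled shRNA 1 was 0.50 for the 20 mitosis genes, with all 20 higher and an interquartile range of 0.41 to 0.61. For the 20 replication genes it was 0.29, with 19 higher and an interquartile range of 0.13 to 0.43. Of the mitosis genes, 19 of 20 lay above the median of the replication genes, and 4 of 20 replication genes lay above the median of the mitosis genes. At a log2 difference of at least 0.32, 18 of 20 mitosis genes and 9 of 20 replication genes were higher, against 17.9% of all tested features. At 1.5-fold the counts were 7 of 20 and 4 of 20, against 8.96% of all tested features. At 2-fold they were 1 of 20 and 1 of 20, near the 3.65% of all tested features. Set against the control, the gene sets had similar medians in the library labelled shRNA 2, 0.26 for mitosis and 0.23 for replication. In the library labelled shRNA 1 the medians were -0.21 for mitosis and -0.05 for replication. There, 16 of 20 mitosis genes lay below the replication median and 3 of 20 replication genes below the mitosis median. Genes of a set are not replicates, and no test of the difference between the sets is given.

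**Figure D4:**
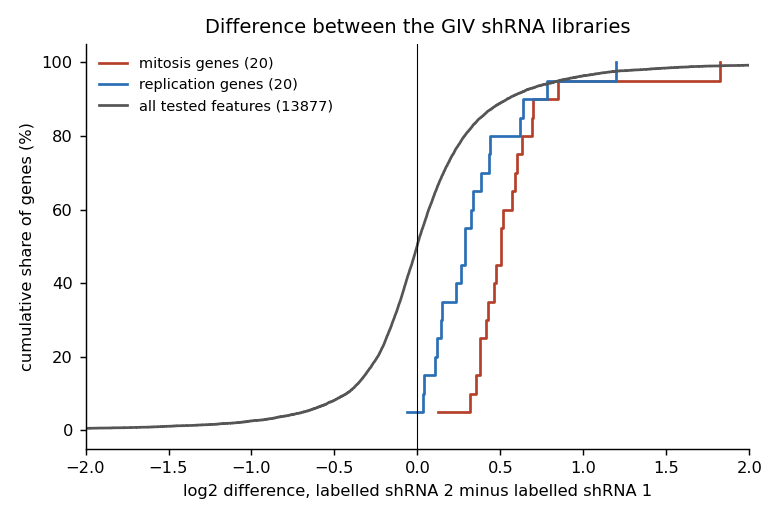
Cumulative share of genes (vertical axis, percent) by their log2 difference of the library labelled shRNA 2 from that labelled shRNA 1 (horizontal axis, limited to the range from -2 to 2). The curve of mitosis genes, with a median of 0.50, lies to the right of that of replication genes, with 0.29. At the median both lie to the right of all tested features, with -0.00. At the upper end some tested features lie beyond every member, as Cenpf, the highest, ranked 133 among the 13877.

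Among the cyclins and their kinase, Ccna2, the cyclin of S phase and G2, had 4372 normalized counts in the library labelled shRNA 2 and 2912 in that labelled shRNA 1, against 3407 in the control. Ccnb1, the main mitotic cyclin, had 4873 normalized counts in the library labelled shRNA 2, 3759 in that labelled shRNA 1 and 4834 in the control. Its partner kinase Cdk1 had 6272 normalized counts in the library labelled shRNA 2 and 4561 in that labelled shRNA 1, against 5363 in the control. For Ccnb1 the value in the library labelled shRNA 2 was thus at the control's level and the gap lay in the library labelled shRNA 1, with a log2 difference from the control of -0.36. Ccnb2 was the 1 mitosis gene below the control in both libraries, with 1680.3 normalized counts in the library labelled shRNA 2, 1348 in that labelled shRNA 1 and 1822 in the control.

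The mitotic kinases and survivin were all highest in the library labelled shRNA 2 and lowest in that labelled shRNA 1. Plk1, a kinase needed for spindle assembly and mitotic entry, had 2199 normalized counts in the library labelled shRNA 2 and 1549 in that labelled shRNA 1, against 2091 in the control. Aurka, which acts at spindle poles, had 3832 normalized counts in the library labelled shRNA 2, 2995 in that labelled shRNA 1 and 3435 in the control. Aurkb, the kinase of the chromosomal passenger complex, had 1701 normalized counts in the library labelled shRNA 2 and 1275 in that labelled shRNA 1, against 1301 in the control. Set against the control, Aurkb differed by 0.39 under shRNA 2 and -0.03 under shRNA 1 as labelled, and Plk1 by 0.07 and -0.43, so that the larger gap lay in a different library for each kinase. Birc5, which encodes survivin, another subunit of that complex, had 2165 normalized counts in the library labelled shRNA 2, 1202 in that labelled shRNA 1 and 1821 in the control. It held the largest negative difference of any member in the library labelled shRNA 1, -0.60, and the log2 difference between the GIV shRNA libraries was 0.85.

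The 3 members of the spindle checkpoint and mitotic exit lay close together, with differences of 0.48 to 0.63 between the GIV shRNA libraries. That range is near the interquartile range of all mitosis members, 0.41 to 0.61. Mad2l1, a checkpoint gene that is not a member, went the other way, as given below. Bub1, a checkpoint kinase at the kinetochore, had 4599 normalized counts in the library labelled shRNA 2 and 3040.2 in that labelled shRNA 1, against 3402 in the control. Bub1b, which encodes the checkpoint protein BUBR1, had 4989 normalized counts in the library labelled shRNA 2, 3588 in that labelled shRNA 1 and 4115 in the control. Cdc20, the activator of the anaphase-promoting complex that the checkpoint restrains, had 2195 normalized counts in the library labelled shRNA 2 and 1418 in that labelled shRNA 1, against 1848 in the control. Each of the 3 was lowest in the library labelled shRNA 1 and highest in the library labelled shRNA 2.

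The motor proteins of the spindle and midzone followed. Kif11, the motor that pushes spindle poles apart, had 3125 normalized counts in the library labelled shRNA 2, 2186 in that labelled shRNA 1 and 2664 in the control. Kif20a, a midzone motor of late mitosis, had 3938 normalized counts in the library labelled shRNA 2 and 2438 in that labelled shRNA 1, against 2853 in the control. Kif23, a subunit of centralspindlin, had 2361 normalized counts in the library labelled shRNA 2, 1591 in that labelled shRNA 1 and 2057 in the control. These differed by 0.52, 0.69 and 0.57 between the libraries labelled shRNA 2 and shRNA 1. Cenpe, a kinetochore motor, had 5519.6 normalized counts in the library labelled shRNA 2 and 4257 in that labelled shRNA 1, against 4549 in the control, a difference of 0.37.

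Cenpf had the largest difference of any member between the GIV shRNA libraries. This large kinetochore protein (ENSMUSG00000026605.14, chromosome 1, 189640606 to 189688086, GRCm38) had 4754 normalized counts in the library labelled shRNA 2, 1346 in that labelled shRNA 1 and 1212 in the control. Its log2 difference was 1.82 between the libraries labelled shRNA 2 and shRNA 1, or 3.53-fold. The next highest mitosis gene, Birc5, stood at 0.85, and the next highest member, the replication gene Chaf1b, at 1.20. Cenpf ranked 133 among the 13877 tested features. Here the library labelled shRNA 1 was near the control and the gap lay in the library labelled shRNA 2. Leaving out Cenpf, the median of the remaining 19 mitosis genes was still 0.50, and their SD was 0.16, against 0.34 with it. Nusap1, a microtubule-bundling protein, had 2566 normalized counts in the library labelled shRNA 2 and 1586 in that labelled shRNA 1, against 1763 in the control. Tpx2, which activates Aurora A at the spindle, differed least of the mitosis genes (0.13), with 6140.4 normalized counts in the library labelled shRNA 2, 5629.6 in that labelled shRNA 1 and 5559 in the control.

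The widely used proliferation markers Mki67 and Top2a belong to the most abundant members in normalized counts. Per kilobase of transcript this holds for Top2a, with 2512 in the control, but not for Mki67. Mki67 had 753 per kilobase in the control, below the median of 847 over the 40 members. Mki67, which encodes Ki-67, had 10703 normalized counts in the library labelled shRNA 2 and 7548 in that labelled shRNA 1, against 7573 in the control. Top2a, a topoisomerase that untangles chromosomes, had 15738 normalized counts in the library labelled shRNA 2, 11746 in that labelled shRNA 1 and 13113 in the control. Both were highest in the library labelled shRNA 2; in that labelled shRNA 1, Mki67 was at the control's level and Top2a below it, by a log2 difference of -0.16.

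Turning to replication, the cyclin E genes differed from each other. Ccne2 had 826 normalized counts in the library labelled shRNA 2 and 612 in that labelled shRNA 1, against 575 in the control. Ccne1, the other cyclin that drives entry into S phase, had 576 normalized counts in the library labelled shRNA 2, 600.4 in that labelled shRNA 1 and 435 in the control, and was above the control in both libraries. It was the 1 member not higher in the library labelled shRNA 2 than in the library labelled shRNA 1. That difference, -0.06, turned positive with equal column totals, a scaling that raised the median of all tested features to 0.068. E2f1, a transcription factor of S-phase genes, had 545 normalized counts in the library labelled shRNA 2 and 417 in that labelled shRNA 1, against 512 in the control, with the library labelled shRNA 1 lowest.

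For origin licensing, Cdc6 had 687 normalized counts in the library labelled shRNA 2, 563 in that labelled shRNA 1 and 587 in the control. Cdt1, which loads the MCM helicase together with CDC6, had 2691 normalized counts in the library labelled shRNA 2 and 2207 in that labelled shRNA 1, against 2679 in the control. The difference between the GIV shRNA libraries was 0.29 for each. They differed in their place relative to the control, Cdt1 being at the control's level in the library labelled shRNA 2 and below it in that labelled shRNA 1.

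The 6 MCM subunits, which form a ring with 1 copy of each, did not differ by the same amount. Mcm2 had 4554 normalized counts in the library labelled shRNA 2, 2927 in that labelled shRNA 1 and 3232 in the control. Mcm7 had 3482 normalized counts in the library labelled shRNA 2 and 2568 in that labelled shRNA 1, against 2664 in the control. Their differences between the libraries labelled shRNA 2 and shRNA 1 were 0.64 and 0.44. Mcm5 had 5635 normalized counts in the library labelled shRNA 2, 4507 in that labelled shRNA 1 and 5324 in the control. Mcm3 had 6820.2 normalized counts in the library labelled shRNA 2 and 5682 in that labelled shRNA 1, against 5857 in the control. Their differences were 0.32 and 0.26. Mcm6 had 5784 normalized counts in the library labelled shRNA 2, 5215 in that labelled shRNA 1 and 5375 in the control, a difference of 0.15. Mcm4 was above the control in both libraries, with 3836 normalized counts in the library labelled shRNA 2 and 3539 in that labelled shRNA 1, against 2852 in the control, and had the smallest difference of the ring, 0.12. Per kilobase of transcript, the level of the 6 subunits ran from 1069 to 1988 normalized counts in the library labelled shRNA 2, from 838 to 1656 in that labelled shRNA 1 and from 795 to 1707 in the control.

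Partners of the helicase had a median difference of 0.23 between the GIV shRNA libraries, against 0.29 for the MCM subunits. Cdc45 had 1134 normalized counts in the library labelled shRNA 2, 966 in that labelled shRNA 1 and 964 in the control. Gins2, a subunit of the GINS complex, had 601 normalized counts in the library labelled shRNA 2 and 477 in that labelled shRNA 1, against 531 in the control. Gins1, from the same complex, had 596 normalized counts in the library labelled shRNA 2, 581 in that labelled shRNA 1 and 626 in the control and was the 1 replication gene below the control in both libraries. These 3 genes differed by 0.23, 0.33 and 0.04 between the libraries labelled shRNA 2 and shRNA 1.

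Nucleotide supply genes differed among themselves. Rrm2, the regulated subunit of ribonucleotide reductase, had 3147 normalized counts in the library labelled shRNA 2 and 1835 in that labelled shRNA 1, against 2064 in the control. Rrm1, the other subunit, had 7793 normalized counts in the library labelled shRNA 2, 7076 in that labelled shRNA 1 and 7082 in the control. The difference between the libraries labelled shRNA 2 and shRNA 1 was 0.78 for Rrm2 and 0.14 for Rrm1. Tyms, which makes thymidylate, had 2013 normalized counts in the library labelled shRNA 2 and 1968 in that labelled shRNA 1, against 1656 in the control, and lay above the control in both libraries by a like amount (0.28 and 0.25).

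The remaining replication genes held the set's extremes. Pcna, the sliding clamp, was its most abundant member both in normalized counts and per kilobase, and nearly flat, with 8821 normalized counts in the library labelled shRNA 2, 8187 in that labelled shRNA 1 and 8494 in the control. Chaf1b (ENSMUSG00000022945.12, chromosome 16, 93883901 to 93906115), a subunit of the chromatin assembly factor that follows the replication fork, had 562 normalized counts in the library labelled shRNA 2 and 244 in that labelled shRNA 1, against 263 in the control. That is 2.29-fold between the libraries labelled shRNA 2 and shRNA 1 and a log2 difference of 1.20, the largest of the set. As with Cenpf, the library labelled shRNA 1 was near the control (-0.10). Ung, a uracil DNA glycosylase and the least abundant member, had 169 normalized counts in the library labelled shRNA 2, 109.6 in that labelled shRNA 1 and 73.7 in the control, and was above the control in both libraries.

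Tested over both libraries labelled GIV-depleted against the control, no member passed. In limma, with Benjamini-Hochberg adjustment over 13877 features, the adjusted p of the 40 members ran from 0.72 to 0.999, and 0 of 40 had an unadjusted p under 0.05. Without the filter on low values, 2 of 40 had one, as did 2716 of 23815 features, and 0 passed after adjustment. Over all tested features 0, or 0%, passed an adjusted p of 0.05, and 963, or 6.94%, had an unadjusted p under 0.05. The fit has 1 residual degree of freedom, which the GIV shRNA libraries supply, and it takes the spread of the control to equal theirs. Those libraries carry different hairpins but were fitted as 1 group, so any difference between hairpins counts as spread. The members with the lowest unadjusted p were Mcm4, with a mean log2 difference of 0.37 (SE 0.14, adjusted p = 0.72 in limma), Ccne1, with 0.43 (SE 0.19, adjusted p = 0.73), and Ung, with 0.87 (SE 0.41, adjusted p = 0.74). All 3 were above the control in 2 of 2 libraries, as were 8 of the 40 members in total, while 2 of 40, Ccnb2 and Gins1, were below it in both. The shares of all tested features above or below the control in both libraries were not computed, so nothing is read from these counts. Both differences also use the same control library. The median of this mean difference was 0.05 for mitosis genes and 0.10 for replication genes, and each value turns negative when the library labelled shRNA 2 is left out (-0.21 and -0.05).

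Other genes of the same processes, from lists that hold none of the 40 members, are given beside them. Of 53 other mitosis genes, 48 were higher in the library labelled shRNA 2 than in that labelled shRNA 1, with a median of 0.45, and 10 were higher by at least 1.5-fold and 0 lower. Of 50 other replication genes, 40 were higher, with a median of 0.21, and 3 were higher by at least 1.5-fold and 0 lower. Over all tested features 49.5% were higher by any amount, 8.96% higher and 6.54% lower by at least 1.5-fold, so the 3 of 50 lie below the background share. Against the control the other mitosis genes had medians of 0.22 in the library labelled shRNA 2 and -0.23 in that labelled shRNA 1, and the other replication genes 0.16 and -0.00. These lists were written with earlier results of these libraries known and share the libraries with the members, so they are no independent evidence.

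The largest differences between the GIV shRNA libraries among other replication genes were those of Orc1, Exo1, Dnmt1 and Clspn. Orc1, the largest subunit of the origin recognition complex, had 2629 normalized counts in the library labelled shRNA 2 and 525 in that labelled shRNA 1, against 426 in the control. Exo1, a DNA exonuclease, had 659.6 normalized counts in the library labelled shRNA 2, 301 in that labelled shRNA 1 and 425 in the control. Orc1 differed from the control by 2.62 under shRNA 2 and by 0.30 under shRNA 1 as labelled, whereas Exo1 differed by 0.63 and -0.49. Dnmt1, the maintenance DNA methyltransferase, had 6084 normalized counts in the library labelled shRNA 2 and 3610.2 in that labelled shRNA 1, against 4557 in the control. Clspn, a replication checkpoint protein, had 1063 normalized counts in the library labelled shRNA 2, 709 in that labelled shRNA 1 and 719.7 in the control.

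Among other mitosis genes, Espl1, which encodes separase, had 2284 normalized counts in the library labelled shRNA 2 and 999 in that labelled shRNA 1, against 753 in the control. Prc1, a bundler of midzone microtubules, had 3964 normalized counts in the library labelled shRNA 2, 1811 in that labelled shRNA 1 and 3370.0 in the control. Fam83d had 240.2 normalized counts in the library labelled shRNA 2 and 116 in that labelled shRNA 1, against 147 in the control. Sgo1, a protector of centromeric cohesion, had 782 normalized counts in the library labelled shRNA 2, 428 in that labelled shRNA 1 and 538 in the control. The gap of Prc1 thus lay mostly in the library labelled shRNA 1, and that of Espl1 in the library labelled shRNA 2. Mad2l1, a spindle checkpoint protein named here after its values were seen, was the gene of all these lists with the lowest unadjusted p. It had 2349 normalized counts in the library labelled shRNA 2 and 3044 in that labelled shRNA 1, against 972 in the control, a mean log2 difference of 1.46 (SE 0.21, adjusted p = 0.29 in limma). In the library labelled shRNA 2 it was lower than in that labelled shRNA 1, against the direction of 48 of the 53 genes.

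Regulators of the cycle were split in direction. Of 15 tested cyclin, CDK and inhibitor genes, 9 were higher in the library labelled shRNA 2 than in that labelled shRNA 1 and 6 lower. Among all tested features 49.5% were higher. The filter left out 3 of the 18 listed genes (Cdkn1c, Cdkn2a and Cdkn2b). Ccnd2, a D-type cyclin of G1, had 1214 normalized counts in the library labelled shRNA 2, 2864 in that labelled shRNA 1 and 329 in the control. That gene was above the control in both libraries, with a mean log2 difference of 2.50 (SE 0.56, adjusted p = 0.52 in limma), and higher in the library labelled shRNA 1, opposite to the members. Cdkn1a, the CDK inhibitor p21, had 19917 normalized counts in the library labelled shRNA 2 and 28978 in that labelled shRNA 1, against 22676 in the control. Wee1, a kinase that restrains CDK1, had 447 normalized counts in the library labelled shRNA 2, 276 in that labelled shRNA 1 and 340.1 in the control. Cdkn2d, an inhibitor of CDK4 and CDK6, had 709.7 normalized counts in the library labelled shRNA 2 and 494 in that labelled shRNA 1, against 729 in the control.

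Of 22 E2F, RB and DREAM factors, the library labelled shRNA 2 had higher values than that labelled shRNA 1 for 10 and lower values for 12, with a median of -0.03. Among all tested features 49.5% were higher. The balance turned to 14 of 22 higher with equal column totals, a scaling that also moved the median of all tested features from -0.003 to 0.068. E2f8, a repressive E2F that is itself a cell cycle gene, had 713 normalized counts in the library labelled shRNA 2, 320.2 in that labelled shRNA 1 and 364 in the control. Rb1, the retinoblastoma protein, had 848 normalized counts in the library labelled shRNA 2 and 416 in that labelled shRNA 1, against 306 in the control. E2f7 had 101 normalized counts in the library labelled shRNA 2, 173 in that labelled shRNA 1 and 118 in the control, so that this close relative of E2f8 differed in the opposite direction. Foxm1, an activator of mitosis genes, had 1738 normalized counts in the library labelled shRNA 2 and 1174 in that labelled shRNA 1, against 1716 in the control, with the library labelled shRNA 1 lowest, as for most mitosis members. Mybl2, which encodes B-MYB and was added after its values were seen, had 1481 in the library labelled shRNA 2, 1137 in that labelled shRNA 1 and 757 in the control. Unlike most mitosis members it was above the control in both libraries.

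**Figure D5:**
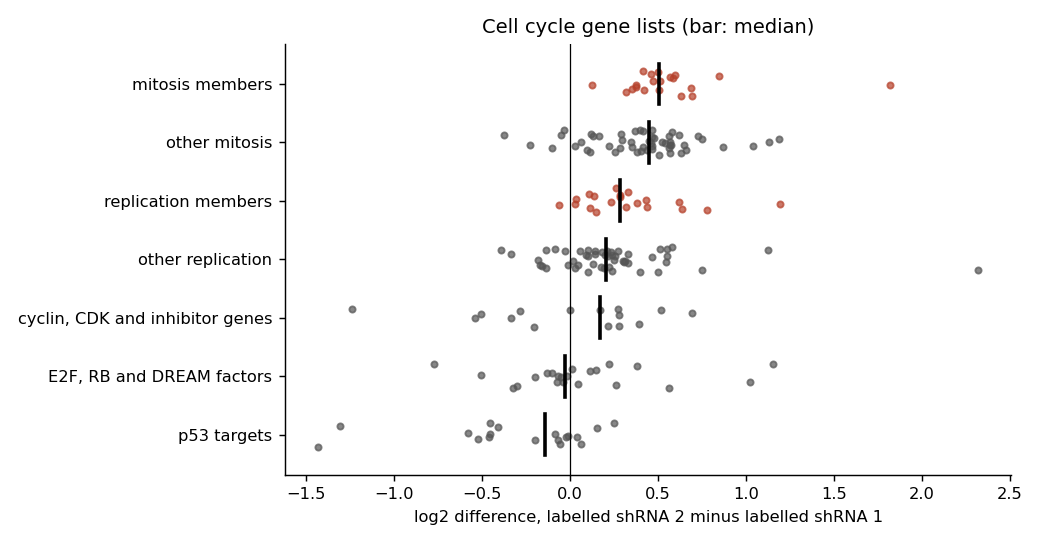
Log2 difference of the library labelled shRNA 2 from that labelled shRNA 1 (horizontal axis) for each tested gene of 7 lists (rows), with the 2 lists of members in red and the median of each list as a black bar. Medians are 0.50 and 0.45 for the mitosis lists and 0.29 and 0.21 for the replication lists, against 0.17, -0.03 and -0.14 for the remaining lists.

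Features of the transcripts themselves were set beside the difference. Over the 40 members, the Spearman correlation of the difference between the libraries labelled shRNA 2 and shRNA 1 was 0.11 with transcript length, -0.13 with GC content and -0.17 with the control's value. Within the sets, the correlation with the control's value was -0.54 for mitosis genes and -0.31 for replication genes, and that with GC content -0.28 and 0.24. With length it was 0.17 for mitosis genes and 0.05 for replication genes. These are descriptions across 20 genes a set, measured in the same libraries. Over 11568 protein-coding genes above 0 in every library, the same difference had a correlation of -0.01 with length and 0.08 with GC content. The differences from the control, in contrast, had correlations of 0.20 and 0.21 with length and of -0.19 and -0.25 with GC content, for the libraries labelled shRNA 2 and shRNA 1. With a trend in length and GC content removed, the median difference between the GIV shRNA libraries was 0.50 for mitosis genes and 0.28 for replication genes. Among members with a promoter window the median difference was 0.49 for the 14 mitosis genes with a CHR match and 0.65 for the 2 without. It was 0.29 for the 6 replication genes with an E2F match and 0.31 for the 10 without.

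Some values could be shared with neighbouring genes. The annotated span of 9 members, 5 of them replication genes, overlaps another tested gene, and 1 of these, Cdt1, overlaps on the same strand (Gm20388). The library kit keeps strand, but the sources used here do not say whether the authors' counting used it. The overlapping neighbours with the highest values, Elovl1 beside Cdc20 and Ints8 beside Ccne2, had 5151 and 4603 normalized counts in the library labelled shRNA 2, 4949 and 4699 in that labelled shRNA 1 and 5238 and 4685 in the control. A pseudogene of Pcna, Pcna-ps2, was listed at 0 in the library labelled shRNA 2 and had 13.3 in that labelled shRNA 1 and 12.2 in the control, against 8821, 8187 and 8494 for Pcna in the same libraries.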

How the data were processed

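RNA from 3 libraries of LPS-treated RAW 264.7 cells was analysed as 1 table of 54331 versioned Ensembl gene identifiers. Its values are a signal of normalized counts made and deposited by the authors. Salmon, DESeq, DESeq2 and GRCm38 are named per the submitters' processing notes, with versions, roles and annotation release not given in the sources used here. Between 82.3% and 83.9% of low values lay within 0.1 of a whole multiple of the commonest lowest value, too few to recover reads, so no count model was fitted. Symbols, positions, and the length and GC content of the transcript with the longest coding part came from GENCODE M21, with 54097 identifiers matched and 234 not. Features with a mean of at least 10 were put on the log2(value + 1) scale, on which fold changes of low genes are understated. Both libraries labelled GIV-depleted were fitted against the control with limma 3.58.1 in R 4.3.3 (mean-variance trend, two-sided, Benjamini-Hochberg adjustment). A check on simulated data, with equal spread in every library, required only the right size and sign of differences. It does not bear on the p-values here. The labels do not state separate cultures, so a p-value here reflects only how far these libraries differ, which may be technical or between the hairpins. Single libraries were compared by size. A single cell type marker is counted in its list but not reported by name here. The members and lists were chosen with earlier results of these data known. Full values were to be given for the 8 members of each set with the largest difference between the GIV shRNA libraries, those at least 1.5-fold from the control, and up to 4 genes of each other list with the largest such difference. Values of the other members, and of genes marked as such, were added afterwards. Alternatives covered the pseudocount, the filter, scaling, quantile normalization, a GC and length trend, the variance trend, the fold and leave-one-out of the GIV shRNA libraries. For values without a test, a move of more than the SD between these libraries was counted as a change.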

Additional observations from a re-analysis of the deposited data

How the results depend on the processing

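The medians of both gene sets kept their sign in every comparison under other pseudocounts, filters and scalings. The filters could not change them, because the lowest value of any member was 73.7. Other pseudocounts could hardly do so at these levels, and median-of-ratios scaling left them almost the same. Only equal column totals, quantile normalization and the GC and length trend could move them. Between the libraries labelled shRNA 2 and shRNA 1 the medians ran from 0.50 to 0.58 for mitosis genes and from 0.28 to 0.36 for replication genes, the highest with equal column totals. That scaling also moved the median of all tested features in this comparison, from -0.003 to 0.068. Counts of members higher in the library labelled shRNA 2 stayed at 20 of 20 for mitosis and between 18 and 20 for replication, alternatives added after seeing the data. The difference between the sets in the library labelled shRNA 2 minus the control, 0.03, reversed to -0.033 with a GC and length trend removed; the cause was not tested. Leaving out either library labelled GIV-depleted moved the median over both minus the control between -0.21 and 0.26 for mitosis genes, between -0.053 and 0.23 for replication genes and between -0.16 and 0.027 for mitosis minus replication. At a log2 difference of at least 0.32, 18 mitosis and 9 replication genes were higher in the library labelled shRNA 2 than in that labelled shRNA 1, and at a fold of 2 the counts were 1 and 1 (Cenpf and Chaf1b), by construction of the rule. In limma, 1 feature, Gm10443, passed an adjusted p of 0.05 when the filter on the mean was raised to 50 (adjusted p = 0.032), and 1, again Gm10443, with equal column totals (0.037), against 0 otherwise. The count of p53 targets higher in the library labelled shRNA 2 moved to 8 with equal column totals. No paired analysis was possible because there is a single control library. With 1 library per shRNA and 1 control, no value here has a replicate error of its own.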

Other observations

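Targets of p53, which include brakes on the cell cycle and DNA damage response genes, were mostly lower in the library labelled shRNA 2 than in that labelled shRNA 1. Of 18 tested genes, 14 were lower and 4 higher, with a median log2 difference of -0.14. Among the 13877 tested features, 7001 were lower by any amount and 49.5% higher. At 1.5-fold 2 were lower and 0 higher, where 6.54% and 8.96% of all tested features were. With equal column totals, which raised the median of all tested features to 0.068, 8 of 18 were higher. Gadd45a, a stress-induced growth arrest gene, had 127 normalized counts in the library labelled shRNA 2, 317 in that labelled shRNA 1 and 171 in the control. Trp53inp1 had 10.5 normalized counts in the library labelled shRNA 2 and 30.1 in that labelled shRNA 1, against 25.2 in the control, which is close to the filter on low values. Btg2, an antiproliferative gene, had 2276 normalized counts in the library labelled shRNA 2, 3274 in that labelled shRNA 1 and 2397 in the control. Eda2r had 92.9 normalized counts in the library labelled shRNA 2 and 139 in that labelled shRNA 1, against 80.6 in the control. For Gadd45a, Trp53inp1 and Btg2, named for the size of their differences, the library labelled shRNA 1 was highest and the library labelled shRNA 2 lowest. That reverses the order found for 30 of the 40 members, but it was not the order of the whole list. In the library labelled shRNA 2, 11 of the 18 genes were above the control, where 49.6% of all tested features were. Ccng1 and Aen had the same order as most members. Against the control, the medians of the list were 0.08 in the library labelled shRNA 2 and 0.20 in that labelled shRNA 1. With 1 library per shRNA these are values with no test.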
